A study of Mus musculus with 4 samples.

Results

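The genes described here are the 8 that encode the core enzymes and cofactors of mouse DNA methylation: the writers Dnmt1, Dnmt3a and Dnmt3b, the cofactors Uhrf1 and Dnmt3l, and the erasers Tet1, Tet2 and Tet3. They are 8 of 22367 protein-coding genes annotated on chromosomes 1 to 19, X and Y. They were chosen by name and not by any measured value, and a peak was counted for a gene when its midpoint lay within 1 kb of any annotated transcription start site (TSS) of that gene, or elsewhere within the gene body. The peaks mark binding of KDM5C (also SMCX), an X-linked enzyme that demethylates lysine 4 of histone H3 (H3K4). Binding was profiled by ChIP-Seq, the sequencing of DNA that comes down with an antibody from sheared chromatin, here an antibody raised against KDM5C. All cells were male mouse epiblast-like cells (EpiLCs), a culture model of the early post-implantation epiblast, and all carried on their single X chromosome a truncated Tsix, whose antisense RNA represses Xist (XΔTsixY). The WT group had an intact Kdm5c gene, and the KO group carried a Kdm5c allele without the exons that encode the catalytic JmjC domain, from which the study describes a barely detectable protein. The labels list 1 immunoprecipitated and 1 input sample per genotype at day 2. By the study's methods WT had replicate samples and KO did not, but 1 peak list per genotype was used here, so the spread between replicates is unknown and the genotypes were not tested against each other. The labels describe the conversion to EpiLCs alone, while the study's methods place day 2 after that stage, so the stage remains uncertain. The strain is likewise uncertain, since the labels give C57BL/6J and the study's methods describe mutant mice of a 129/Sv or mixed background.

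DNA methylation in mammals is placed on cytosines that precede guanines (CpG). DNMT1 copies the pattern onto the new strand after replication, guided by UHRF1, which recognises CpGs methylated on only 1 strand. DNMT3A and DNMT3B set new methylation, stimulated by DNMT3L, a catalytically inactive relative that is abundant in germ cells and early embryonic cells. The ADD domain of the DNMT3 proteins binds the tail of histone H3 only when H3K4 is unmethylated. The study describes the product of KDM5C as monomethylated H3K4. TET1, TET2 and TET3 oxidise methylated cytosine, which leads to its loss. The implanting epiblast is known for a wave of new methylation, and many promoters dense in CpGs (CpG islands) escape it.

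Within this group, KDM5C peaks in WT cells were found at the promoters of the maintenance pair, Dnmt1 and Uhrf1, and in the body of Dnmt3l. The Dnmt3l peak also lay within 1 kb of a start of another gene, Aire. Dnmt3a, Dnmt3b, Tet1, Tet2 and Tet3 had no WT peak in promoter or gene body. Thus 2 of the 8 genes had a WT promoter peak, a share close to the 24.0% (5358 of 22367) of all protein-coding genes that had one (95% exact interval 23.4 to 24.5%, counting error only). For the gene body, 1 of 8 genes had a peak outside the promoter, against 4.46% of the 7532 protein-coding genes within the same range of gene length, 20.2 to 108 kb. In the KO list 0 of the 8 genes had a promoter or body peak, and 0 of the 3 WT peaks overlapped a KO peak. Only 0.0939% of all protein-coding genes (21 of 22367) had a KO promoter peak, so an absence in 8 genes says nothing particular about them.

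**Figure D1:**
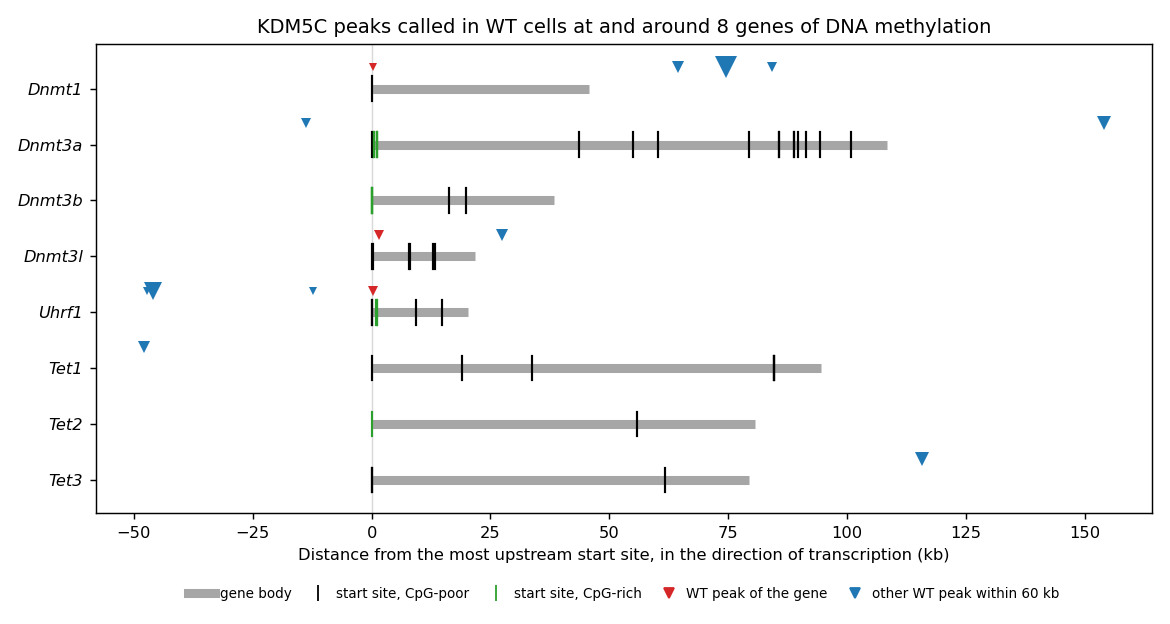
Map of the 8 genes, with distance from the most upstream annotated start site in kb on the x axis and a row for each gene. Grey bars are gene bodies, ticks are start sites (green where CpG-rich), and triangles are WT KDM5C peaks, sized by score, in red for peaks counted for the gene and in blue for other peaks within 60 kb of the gene body. Red triangles stand only at Dnmt1, Dnmt3l and Uhrf1, close to the start of each gene, and the bodies of the other 5 genes carry none.

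The DNA under the summits of the 3 peaks is shown first, because the peaks carry the finding. Each stretch is read 5′ to 3′ on the strand of the named gene from the NCBIM37 sequence, which is the same assembly as mm9, with CpG dinucleotides in capitals. Untranslated exon sequence of the GENCODE annotation was left out. Where a RefSeq start lay inside a stretch, as at Dnmt1, the stretch ended at most 30 bases past that start. The Dnmt1 stretch is 85 bases (chr9:20757038-20757122, minus strand), the Uhrf1 stretch 300 bases (chr17:56443061-56443360, plus strand) and the Dnmt3l stretch 300 bases (chr10:77505969-77506268, plus strand), and each holds the summit.
Dnmt1: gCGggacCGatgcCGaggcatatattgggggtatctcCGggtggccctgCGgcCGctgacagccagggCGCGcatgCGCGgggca
Uhrf1: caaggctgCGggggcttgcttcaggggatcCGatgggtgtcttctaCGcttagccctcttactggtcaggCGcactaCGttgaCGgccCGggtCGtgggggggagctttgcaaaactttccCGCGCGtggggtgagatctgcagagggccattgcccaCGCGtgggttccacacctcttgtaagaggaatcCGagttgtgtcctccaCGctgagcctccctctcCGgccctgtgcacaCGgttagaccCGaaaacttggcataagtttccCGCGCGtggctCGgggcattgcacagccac
Dnmt3l: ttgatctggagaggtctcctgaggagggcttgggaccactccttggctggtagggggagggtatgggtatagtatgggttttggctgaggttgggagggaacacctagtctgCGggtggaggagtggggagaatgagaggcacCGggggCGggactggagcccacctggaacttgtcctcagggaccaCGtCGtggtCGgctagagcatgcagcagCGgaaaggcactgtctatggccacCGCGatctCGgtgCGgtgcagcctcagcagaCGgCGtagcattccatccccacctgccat

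For contrast, the 250 bases before the most upstream start sites of Dnmt3b (chr2:153474936-153475185, plus strand) and Tet2 (chr3:133207355-133207604, minus strand) are shown, since both genes start in CpG-rich sequence and had no peak.
Dnmt3b: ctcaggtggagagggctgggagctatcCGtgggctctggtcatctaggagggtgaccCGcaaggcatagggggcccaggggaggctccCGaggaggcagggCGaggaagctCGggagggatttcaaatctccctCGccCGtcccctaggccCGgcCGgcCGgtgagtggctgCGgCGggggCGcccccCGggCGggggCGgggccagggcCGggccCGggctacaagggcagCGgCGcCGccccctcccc
Tet2: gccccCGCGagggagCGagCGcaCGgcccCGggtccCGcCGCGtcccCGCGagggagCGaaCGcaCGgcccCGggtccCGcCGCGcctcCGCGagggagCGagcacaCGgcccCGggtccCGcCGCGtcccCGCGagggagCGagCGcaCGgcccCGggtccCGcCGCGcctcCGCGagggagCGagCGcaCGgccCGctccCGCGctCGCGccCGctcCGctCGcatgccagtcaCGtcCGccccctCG

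The printed Dnmt1 stretch held 10 CpGs, that of Uhrf1 22 and that of Dnmt3l 13. The Dnmt3b stretch held 21 CpGs. The Tet2 stretch held 51, the most of the stretches shown although it was shorter than those of Uhrf1 and Dnmt3l, and it had no peak. The stretches differ in length and in placement, at a summit or before a start, so the counts are not densities. By CpG ratio (observed over expected) they had 0.944 at Dnmt1, 0.772 at Uhrf1, 0.484 at Dnmt3l, 0.6 at Dnmt3b and 1.19 at Tet2.

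Dnmt1 (ENSMUSG00000004099.8, chr9:20711650-20757317, minus strand) encodes the maintenance methyltransferase. Its WT peak spanned chr9:20756797-20757310, 514 bp, with a score of 39 and 2.60-fold enrichment over input. The score is 10 times the −log10 of the q-value with decimals dropped, and the −log10 q of this peak was 3.94. The peak ranked 5670 in the WT list of 6916 peaks on assembled chromosomes, above 17.2% of them by score and above 9.43% by fold enrichment. It was therefore a weak peak within its list, in which the median score was 82 (quartiles 48 and 162) and the median fold enrichment 3.72 (quartiles 3.05 and 4.85). Its summit at position 20757050 lay in the first part of the gene, in an annotated intron, 267 bp downstream of the only GENCODE start site. RefSeq annotates other Dnmt1 starts, and RefSeq promoter windows (GRCm38.p6) were therefore placed on NCBIM37 by exact match, which succeeded for 15 of 15 windows of the 8 genes. A RefSeq start of Dnmt1 fell at position 20757067, 17 bp from the summit, so the summit lay just inside a start that the GENCODE release does not hold, 250 bp from the GENCODE start. Another RefSeq start, at 20757423, lay 373 bp upstream of the summit (CpG ratio 0.593) and also had the peak within 1 kb. The remaining RefSeq start, at 20764332, lay 7282 bp upstream of the summit, in CpG-poor sequence (CpG ratio 0.0588). It had no peak within 1 kb.

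Uhrf1 (ENSMUSG00000001228.8, chr17:56442744-56462909, plus strand) encodes the factor that brings DNMT1 to newly replicated DNA. Its WT peak spanned chr17:56442844-56443367, 524 bp, with a score of 48, 2.75-fold enrichment and a −log10 q of 4.81. It ranked 5141, above 24.5% of WT peaks by score and 13.8% by fold enrichment, and so lay among the weaker peaks as well. The midpoint fell between start sites, 361 bp downstream of that of transcript Uhrf1-001 and 282 bp downstream of that of Uhrf1-002, and 631, 666 and 725 bp upstream of those of Uhrf1-003, Uhrf1-004 and Uhrf1-005. The summit, at 56443192, lay in an intron of Uhrf1. The 3 downstream starts lay in CpG-rich sequence (CpG ratios of 0.823 to 0.839), whereas the upstream starts did not (0.532 and 0.578). The peak thus sat on the upstream side of the CpG-rich stretch.

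Among the 5358 genes with a WT promoter peak, taking the best peak of each, Dnmt1 scored above 14.4% of genes (774) and Uhrf1 above 21.2% (1138). By fold enrichment the shares were 8.53% for Dnmt1 and 13.2% for Uhrf1. The median of these genes was a score of 90 (quartiles 53 and 177) and a fold enrichment of 3.77 (quartiles 3.07 and 4.98), so both genes fell below the lower quartile on both scales. The protein-coding genes next to Uhrf1 in −log10 q were Ccdc83 above it, by 0.0018, and Rmnd1 below it, by 0.0058. These gaps are within a single list, in which 4 genes share the value of Ccdc83 and 6 that of Rmnd1.

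**Figure D2:**
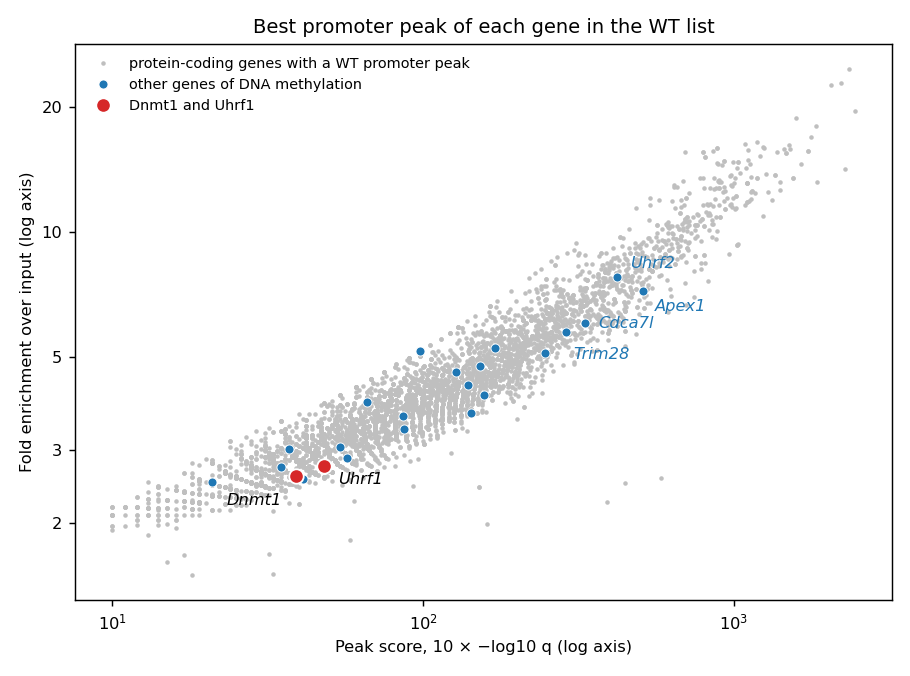
Score (x axis, log scale) against fold enrichment over input (y axis, log scale) of the best WT promoter peak of each bound protein-coding gene. Grey points are all 5358 genes, blue points the 21 bound genes of a wider DNA methylation list, and red points Dnmt1 (39, 2.60-fold) and Uhrf1 (48, 2.75-fold), which lie at the low end of the cloud, far from Uhrf2 (421, 7.80-fold).

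Of the de novo group, Dnmt3l (ENSMUSG00000000730.7, chr10:77504692-77526367, plus strand), which encodes the cofactor of DNMT3A and DNMT3B, was the only gene with a peak. It spanned chr10:77505912-77506400, 489 bp, with a score of 59, 3.18-fold enrichment and a −log10 q of 5.97, and was the highest of the 3 peaks by score and by fold enrichment. It ranked 4479, above 33.1% of WT peaks by score. The midpoint lay 1124 bp downstream of the start of Dnmt3l-001, just past the 1 kb limit of a promoter peak, and 1464 bp downstream of the most upstream start. The peak was not only in Dnmt3l. Its midpoint lay 161 bp from a start site of Aire, a gene on the opposite strand that encodes a regulator of antigen expression in the thymus, and its summit at 77506188 lay in an intron of Dnmt3l and in annotated coding sequence of Aire. By the 1 kb rule it counted as a promoter peak of Aire and as a body peak of Dnmt3l. A peak list carries no strand, so which of these genes the binding concerns cannot be told apart. Without peaks that lay within 1 kb of the start of another gene, 0 of the 8 genes had a body peak.

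**Figure D3:**
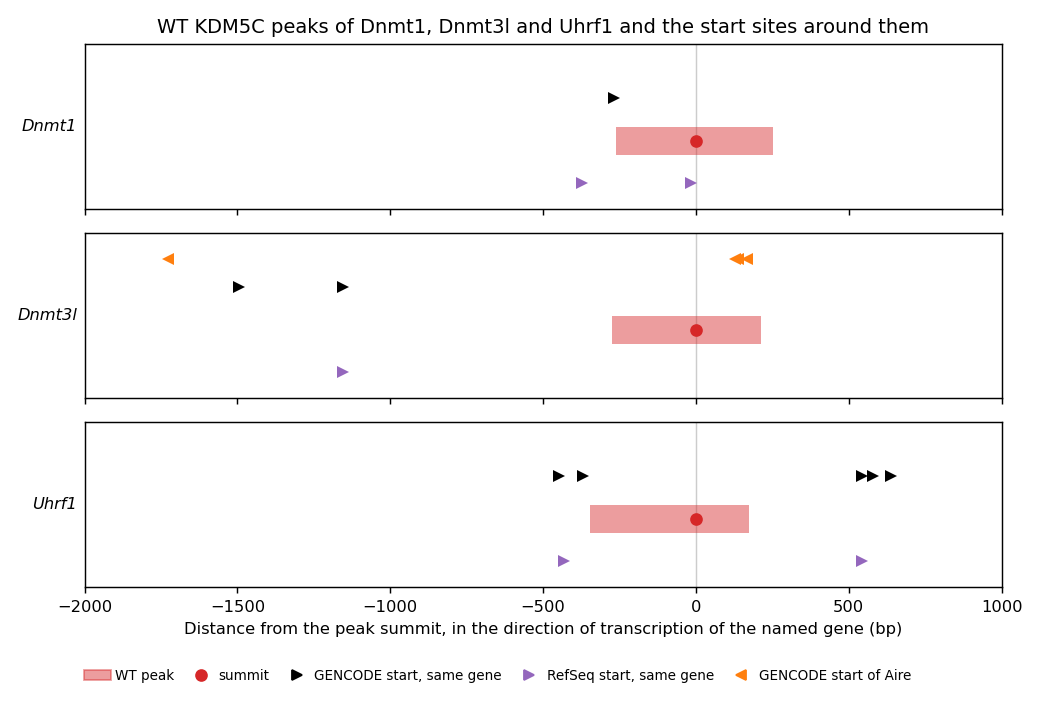
Close-up of the 3 WT peaks (pink bars, red dots at the summits), with distance from the summit in bp on the x axis, read in the direction of transcription of the named gene. Triangles point along transcription and mark start sites of the same gene in GENCODE (black) and RefSeq (purple), and of Aire (orange). The Dnmt1 summit lies 17 bp past a RefSeq start, the Uhrf1 peak lies between 2 groups of starts, and the Dnmt3l peak lies more than 1 kb past the Dnmt3l starts and beside starts of Aire.

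Dnmt3a (ENSMUSG00000020661.9, chr12:3806007-3914443, plus strand) and Dnmt3b (ENSMUSG00000027478.9, chr2:153475186-153513466, plus strand) encode the active de novo methyltransferases. Dnmt3a had 18 annotated start sites, of which 5 lay in CpG-rich sequence, with CpG ratios of 0.743 to 0.989. The nearest WT peak lay 13735 bp upstream of its first start, in intergenic sequence, with a score of 44 and a width of 294 bp, the smallest width in the list. Dnmt3b had 6 start sites, 4 of them CpG-rich with ratios of 0.828 to 0.841, and the nearest WT peak to any of them was 109770 bp away, measured from an internal start. No peak was therefore called at either gene, although both have CpG-rich starts.

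The erasers also lacked WT peaks. Tet1 (ENSMUSG00000047146.8, chr10:62267318-62361866, minus strand) had its most upstream start 47946 bp from the nearest WT peak, which had a score of 109 and lay at the start of Dna2. Tet2 (ENSMUSG00000040943.7, chr3:133126643-133207354, minus strand) had the nearest WT peak to any start 178392 bp from an internal start, the longest such distance of the 8 genes. Tet3 (ENSMUSG00000034832.8, chr6:83312367-83391672, minus strand) had the nearest WT peak to any start 53923 bp from an internal start, past the 3′ end of the gene. This peak had a score of 162 and lay at the start of Mob1a, which like Dna2 is named after its values were seen. A missing peak is a threshold call. The study gives a minimum number of reads per sample, but the peak lists hold no read counts. Weak binding at these genes would therefore not be seen.

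Reads were kept only where they mapped uniquely, and the sequence around the start sites was therefore examined for repeats. Within 1 kb of the GENCODE and RefSeq starts, 98.0 to 99.7% of 50-base words occurred once in the genome in 7 of the genes, and 94.9% did so for Tet1. Within the 3 peaks, and within 1 kb of the CpG-rich start of Tet2, 100% of words were unique. These shares count exact matches only and take no account of mismatches that the aligner allowed.

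The genes were next set beside genes of like CpG content, since CpG-poor starts seldom carried a peak. CpG-rich start sites were those with a CpG ratio (observed over expected) of 0.6 or more and a GC content of 50% or more, over 500 bp on either side. Of 49 distinct GENCODE start sites of the 8 genes, 13 were CpG-rich, in Dnmt3a, Dnmt3b, Uhrf1 and Tet2. Of these 4 genes, 1 (Uhrf1) had a promoter peak, where 43.5% of protein-coding genes with a CpG-rich start had one (4764 of 10940, 95% exact interval 42.6 to 44.5%). With RefSeq starts included, 6 genes had a CpG-rich start, since the Dnmt1 start at the summit (CpG ratio 0.620, GC 65.2%) and a Tet1 start (0.710, GC 57.7%) also met both limits. Of these 6, 2 had a promoter peak. Counts this small do not separate the genes from the background.

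The order of CpG content was not the order of binding among the 8 genes. In the 300 bases from 250 before to 50 after the most upstream start, Tet2 held 57 CpGs, Dnmt3b 31, Tet3 22, Dnmt1 21, Uhrf1 11, Tet1 5, Dnmt3l 3 and Dnmt3a 2, against a median of 11 over all protein-coding genes. The bound genes, Dnmt1 and Uhrf1, held fewer CpGs there than Tet2 and Dnmt3b, which had no peak. The values of Dnmt3a and Tet1 depend on the start taken. At Dnmt3a 5 later starts had CpG ratios of 0.743 to 0.989, against 0.434 at the most upstream. A RefSeq start of Tet1 had 0.710, against 0.270. Over all protein-coding genes the share with a WT promoter peak rose with the CpG ratio at the most upstream start, from 1.84% below 0.2 to 18.7% from 0.4 to 0.6, where Dnmt1, Dnmt3a, Uhrf1 and Tet3 lay, and 49.0% from 0.8 to 1.0, where Dnmt3b and Tet2 lay. At the summits, 300 bases held 25 CpGs at Dnmt1, 21 at Uhrf1 and 20 at Dnmt3l, each below the median of 27 over all WT peaks. Over the whole peak, the CpG ratio was 0.649 at Dnmt1, 0.768 at Uhrf1 and 0.517 at Dnmt3l, so the Dnmt3l peak alone fell short of the CpG-rich limit.

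**Figure D4:**
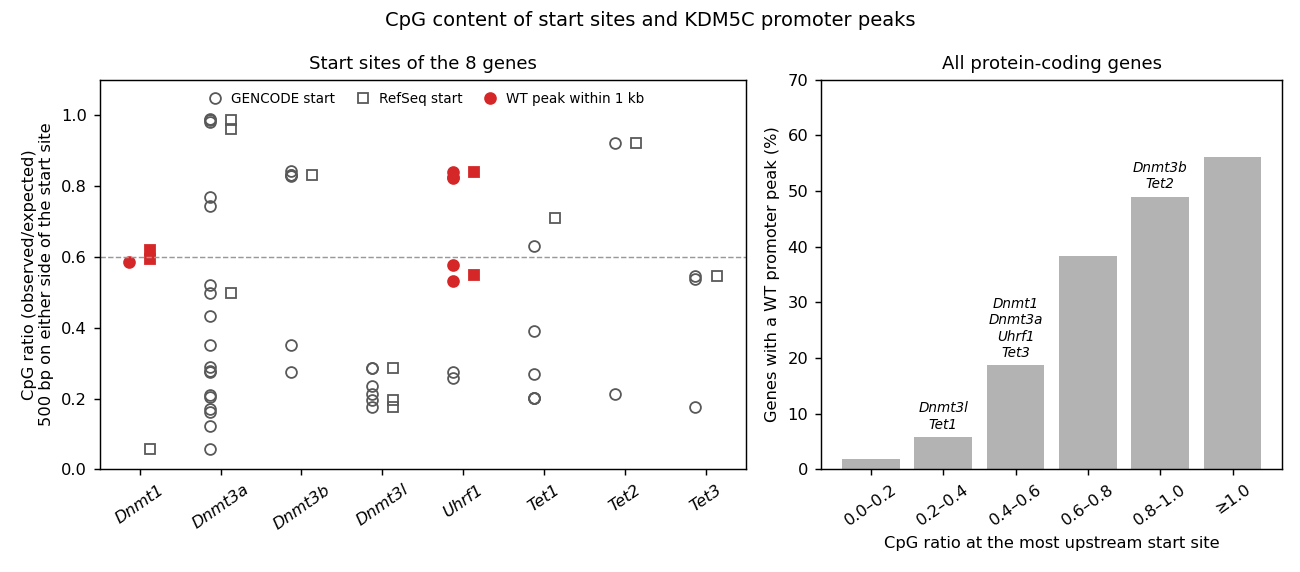
Left, CpG ratio (observed over expected, 500 bp on either side) of every start site of the 8 genes, with circles for GENCODE and squares for RefSeq starts, red where a WT peak midpoint lay within 1 kb, and a dashed line at 0.6. Right, the percent of all protein-coding genes with a WT promoter peak by CpG ratio at the most upstream start, with the bin of each of the 8 genes. The starts of highest ratio, at Dnmt3a and Tet2, are open symbols, while red symbols lie between 0.532 and 0.839.

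Short motifs were then counted in the 300 bases at each summit, on both strands. The sequence GCATGCGC, the core recognised by the factor NRF1, matched 2 times at Dnmt1, on opposite strands at overlapping positions, and the matches spanned the summit, from 3 bases before it to 6 bases after it. It occurred in 4.79% of summit windows of all WT peaks and in 3.30% of promoters of all protein-coding genes. The E2F-type sequence GCGGGAA matched 2 times at Uhrf1, both on the strand opposite to the gene. The nearer match ended 8 bases before the summit. This sequence occurred in 11.9% of WT summit windows and 5.58% of promoters. It also matched 1 time in the Uhrf1 promoter, upstream of the first start and outside the peak. The GC box, GGGCGG, matched 1 time each at Dnmt1 and Dnmt3l, and occurred in 53.7% of WT summit windows and 43.4% of promoters. The sequence CCAAT matched 1 time at Dnmt1, and occurred in 21.8% of WT summit windows and 37.9% of promoters. The E-box, CACGTG, was in 20.6% of WT summit windows against 7.78% of promoters, and in none of the 3 summit windows here nor in the promoter of any of the 8 genes. Neither CTCGCGAG (1.75% of WT summit windows) nor the ETS-type CCGGAAG (11.2%) matched at the 3 summits. Each match is a run of letters and no measurement of factor binding.

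The 8 genes were finally set beside 48 other genes of DNA methylation, in groups by role, 1 of them annotated as a pseudogene. Of these, 21 (43.8%) had a WT promoter peak, against 24.0% of all protein-coding genes. The list was rich in CpG-rich starts, which 37 of its genes had, and of these 18 (48.6%) were bound, against 43.5% of all genes with a CpG-rich start. Their peak scores ran from 21 to 509 with a median of 128. Of the 21 genes, 14 scored at or above the median of all WT peaks (82), which no promoter peak of the 8 genes did. Of the same 21 genes, 17 scored above Uhrf1, the higher of the bound pair. Most bound genes of any kind do the same. Among all 5358 bound genes the median score was 90, and Uhrf1 scored above only 21.2% of them. These counts are therefore no trait of the list. The list was written with earlier results of these data known, so these counts are a description.

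The gene of highest score was Apex1, which encodes an endonuclease of base excision repair, which scored 509 at 7.21-fold enrichment. Its peak also lay within 1 kb of a start of another gene. Uhrf2, the paralogue of Uhrf1, followed scoring 421 at 7.80-fold enrichment, with its midpoint 37 bp from a start site. Uhrf2 and Uhrf1 thus both had a promoter peak in the WT list, with scores of 421 and 48. Cdca7l, a relative of the HELLS partner gene Cdca7, scored 333 at 6.06-fold enrichment, while Cdca7 itself, named after its values were seen, had no peak. Trim28, which encodes a corepressor that protects methylation at imprinted regions, scored 289 at 5.74-fold enrichment, with its midpoint 732 bp upstream of the nearest start.

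By role, 9 of 20 partners and recruiters of the writers were bound (scores 41 to 421, median 157), and so were 4 of 8 readers of methylated DNA (37 to 98, median 71.5). Among proteins that bind unmethylated CpGs, 3 of 5 were bound (21 to 140, median 66). Of 11 genes for removal of oxidised or deaminated bases, 4 were bound (35 to 509, median 167), and of 4 genes for methyl donor supply 1 was, with a score of 143. Counting only genes with a CpG-rich start, 8 of 16 partners and recruiters, 4 of 8 readers, 3 of 5 binders of unmethylated CpGs, 2 of 4 removal genes and 1 of 4 donor genes were bound. Read against the 43.5% of all such genes, groups this small do not stand apart. Genes without a peak, named here after their values were seen, included Hells, a chromatin remodeller needed for DNA methylation, and Tdg, the glycosylase that removes bases oxidised by TET enzymes. None of the 48 genes had a KO promoter peak, for which the background is the 0.0939% given above.

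**Figure D5:**
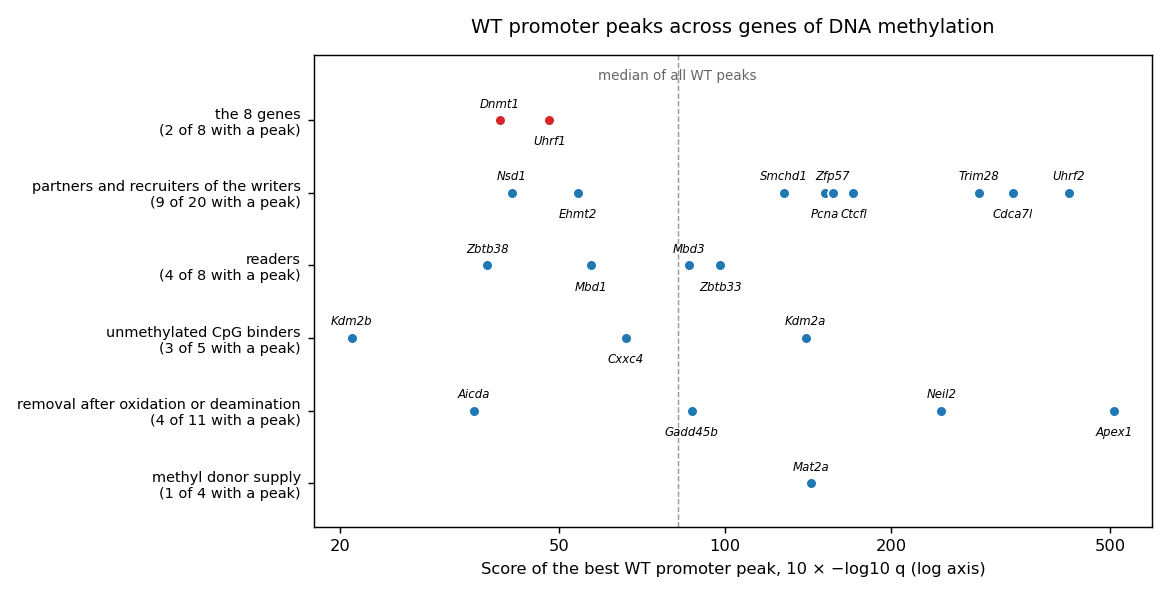
Score of the best WT promoter peak (x axis, log scale) of each bound gene, in rows by role, with the number of genes bound of those in the row. The dashed line is the median score of all WT peaks, 82. Dnmt1 and Uhrf1 (red) lie left of it, while 14 of the 21 other bound genes (blue) lie right of it. Most bound genes of the genome also lie right of it, since the median over all 5358 was 90.

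In KO cells the list held 47 peaks, 44 of them on assembled chromosomes, and none was near the 8 genes. The closest KO peak to any start site was 176285 bp away, at Uhrf1, and the others lay over 1 Mb away. All 3 peaks of the WT list at these genes were thus absent from the KO list as called. By the study's methods the WT list was called on replicates and the KO list on a single sample, and what this difference adds to the lack of KO peaks cannot be told apart from genotype.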

How the data were processed

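KDM5C ChIP-Seq was analysed from 1 WT and 1 KO peak list (1 immunoprecipitated and 1 input sample per genotype, grouped by title). Per the submitters' processing notes, reads were aligned with Bowtie 1.1.2 to mm9 and peaks called with MACS2 2.1.0.20140616 against input. The study's methods give uniquely mapped single-end reads and thresholds on q-value and fold enrichment. The labels of both inputs name a merged input track, so the inputs may have been pooled. The sources disagree on replicates: by the methods WT had replicates and KO did not, and other text speaks of duplicates. For each peak the authors deposited a score, a fold enrichment as a ratio to input, −log10 p-values and −log10 q-values, and a summit. The deposited lists hold no read counts, and for depth the study gives a minimum number of reads per sample. Fold enrichments were not compared between lists. The score was checked in every row to be 10 times −log10 q with decimals dropped.

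Peaks on chromosomes 1 to 19, X and Y were assigned to GENCODE M1 genes on NCBIM37 (0 peaks ran past a chromosome end), with coordinates counted from 1. RefSeq starts came from promoter sequences matched exactly to that build. Shares carry exact Clopper-Pearson 95% intervals, which cover counting error only. Alternatives changed the window, the peak position, the start sites, the score and the CpG limits. Peak assignment was tested on simulated data. The genes named were the 8 members, the 4 listed genes of highest WT score, listed genes with a KO promoter peak (0), genes starting within 1 kb of a member's peak, and the neighbours of the best member in score. Genes outside this rule are marked in the text as named after their values were seen. The members and lists were chosen with earlier results of these data known. Python 3.11.15, NumPy 2.4.6, SciPy 1.17.1, matplotlib 3.10.9 and samtools 1.23.1 were used.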

Additional observations from a re-analysis of the deposited data

How the results depend on the processing

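Of 46 alternative values for 7 results, 28 kept their direction and stayed within the limits of change, 18 moved and 0 turned their direction. With only peaks that reach the WT median score (82) or its 90th percentile (320), 0 of the 8 genes had a WT promoter peak and 0 a body peak, since all 3 peaks score below both. A body peak was also absent (0) with a promoter window of 5 kb, under which the Dnmt3l peak counted as a promoter peak (3 genes in all), and 0 remained without peaks at the start of another gene. That last alternative, and the use of RefSeq starts, under which 2 genes were again bound, were chosen after seeing the data. The share of all protein-coding genes with a WT promoter peak moved to 21.8% at 500 bp, 27.0% at 5 kb, 22% with only the most upstream start, 13% at the median score and 2.79% at the 90th percentile. For genes with a CpG-rich start it moved in the same order to 40, 46.3, 40.3, 23.9 and 5.33%, and to 48.9% with stricter CpG limits. Of the 48 listed genes, 3 were bound at the 90th percentile. Counts in the KO list were 0 under every alternative run. No paired analysis was possible because there is a single list of peaks per genotype. The lists hold no reads to vary depth with, and leaving out a replicate was not possible.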

Other observations

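Around the 8 genes, 11 other WT peaks lay within 60 kb of a gene body, near 6 of the genes, and Dnmt3b and Tet2 had none. Of these peaks, 7 scored higher than the Dnmt3l peak, the highest of the 3 peaks at the genes themselves. That peak ranked 4479 of the 6916 WT peaks by score, so most WT peaks anywhere scored higher too. How many WT peaks lie within 60 kb of other genes was not counted, so the surroundings cannot be called unusual. The genes beside them are named here after their values were seen. Downstream of Dnmt1, a peak with a score of 325 and 5.42-fold enrichment had its summit in coding sequence of Angptl6, 1317 bp from a start of that gene, and a peak with a score of 121 lay 40 bp from a start of Ppan. Upstream of Uhrf1, 2 peaks lay within 1 kb of starts of Fem1a, with scores of 221 and 33. Past the end of Dnmt3l, a peak with a score of 127 lay 71 bp from a start of Icosl, and past the end of Dnmt3a a peak with a score of 135 had its summit in coding sequence of Pomc.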
